A study of Rattus norvegicus with 3 samples.

Results

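Very wide DLX3 peaks are the regions of 4000 bp or more in the DLX3 peak list of rat enamel organ. They were chosen by width alone, the end minus the start of each deposited peak, and 1141 of the 69263 DLX3 peaks (1.65%) met the rule. They are set against the 26128 DLX3 peaks of 1000 to 2000 bp. The tissue was the enamel organ, the epithelium that lays down tooth enamel, from the ever-growing mandibular incisors of wild-type adult rats, and it was profiled by ChIP-seq, in which DNA bound by a protein is pulled down with an antibody and sequenced. The series has 3 libraries, 1 without antibody (input), 1 for the transcription factor DLX3 and 1 for trimethylated lysine 4 of histone H3 (H3K4me3). The last 2 have peak lists, and each is a single library, so no value below has a replicate, no test of a condition was possible and peaks do not stand in for animals. How many animals gave the tissue is not stated in the labels. Sample titles name DLX3 and H3K4me3, while the antibody entries read anti-DLX4 and anti-H3K4me4. The titles were followed. Peaks carry no gene names, so the tissue could not be checked against its marker genes.

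DLX3 is a homeodomain protein of the distal-less family that binds DNA at specific sequences and controls genes in teeth, hair, skin and bone. Inherited changes in human DLX3 cause tricho-dento-osseous syndrome, in which enamel is thin or poorly mineralised. H3K4me3 is laid down at the start sites of genes in use, so a peak of the mark is usually read as an active promoter. A sequence-specific factor mostly gives narrow peaks, and a very wide peak is a stretch over which the caller found enrichment without a break.

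Because width chose these peaks and the score comes from the same library, widths and scores are given as a description. The very wide peaks ran from 4003 to 32205 bp, with a median of 5016 bp and quartiles of 4409 and 6294 bp. Together they held 7.64% of all sequence under DLX3 peaks. Just inside the threshold lay peaks of 4003, 4005 and 4009 bp with scores of 160.8, 68.6 and 640.4, and just outside it peaks of 3998, 3997 and 3993 bp with scores of 90.7, 75.6 and 164.6. The score is the authors' deposited value, which ranks peaks within a list and by convention in this caller rises as the p-value falls. Its median was 427 in the very wide peaks (quartiles 240.1 and 681.5) and 110.4 in peaks of 1000 to 2000 bp (quartiles 75.2 and 181.1). Of the very wide peaks, 791 (69.3%) were in the upper 10% of the DLX3 list by score, and 9 of the 10 DLX3 peaks that scored 3100 or more were very wide. Very wide did not always mean high in score. The widest peak of all, 32205 bp, scored 76.1, and 38 very wide peaks were in the lower 50% of the list. The 5 of lowest score were 4041 bp wide with a score of 50.6 (chr20:6447359-6451399), 6225 bp with 51.95 (chr16:20288748-20294972), 4293 bp with 59.2 (chr10:86771306-86775598), 4304 bp with 59.5 (chr10:9910714-9915017) and 5725 bp with 59.6 (chr19:66027833-66033557). Those on chromosomes 20 and 16 and the second on chromosome 10 lay on H3K4me3.

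**Figure D1:**
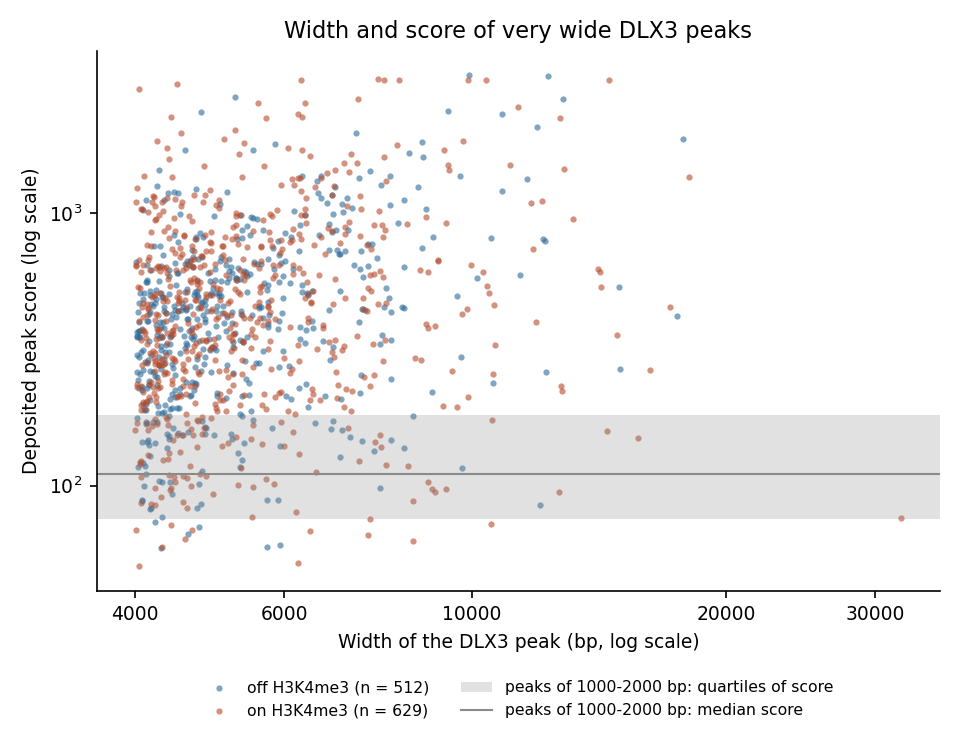
Width (x axis, bp, log scale) and deposited score (y axis, log scale) of each of the 1141 very wide DLX3 peaks, red on H3K4me3 and blue off it, with the median and quartiles of score of the peaks of 1000 to 2000 bp in grey. Red and blue points are mixed over the whole range, and the widest peak, at 32205 bp, has a score of only 76.1.

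Of the very wide peaks, 629 (55.1%, 95% Wilson interval 52.2 to 58.0%) shared at least 1 bp with an H3K4me3 peak, and 512 did not. The share was 35.3% (34.7 to 35.9%) in peaks of 1000 to 2000 bp and 25.4% in the whole DLX3 list. The difference between the classes was 19.8 percentage points (Newcombe interval 16.8 to 22.7). These intervals cover counting error only, and neighbouring peaks are not independent. The share levelled off well below 4000 bp. It was 12.2% in peaks of 500 to under 1000 bp and 53.2% in those of 2000 to under 3000 bp, then stayed between 52.6% and 64.0% in every wider class. Set against peaks of 2000 to under 4000 bp, 53.6% of which were on the mark, the very wide peaks differed by 1.50 points (-1.62 to 4.58).

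A wide peak has more room to touch the mark, and whether that accounts for the difference was not tested. Stricter rules gave smaller differences. The centre of the DLX3 peak lay inside an H3K4me3 peak for 484 very wide peaks (42.4%, Wilson interval 39.6 to 45.3%), beside 34.4% in peaks of 1000 to 2000 bp and 24.4% in the whole list. This share went down as peaks became wider, from 51.2% at 2000 to under 3000 bp to 45.9% at 4000 to under 5000 bp and 32.0% (20.8 to 45.8%) in the 50 peaks of 10000 bp or more. At least 50% of the peak lay under the mark for 448 very wide peaks (39.3%), beside 34.3% in the narrower class and 24.2% in the whole list. The difference by that rule was 4.93 points (2.07 to 7.85).

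**Figure D2:**
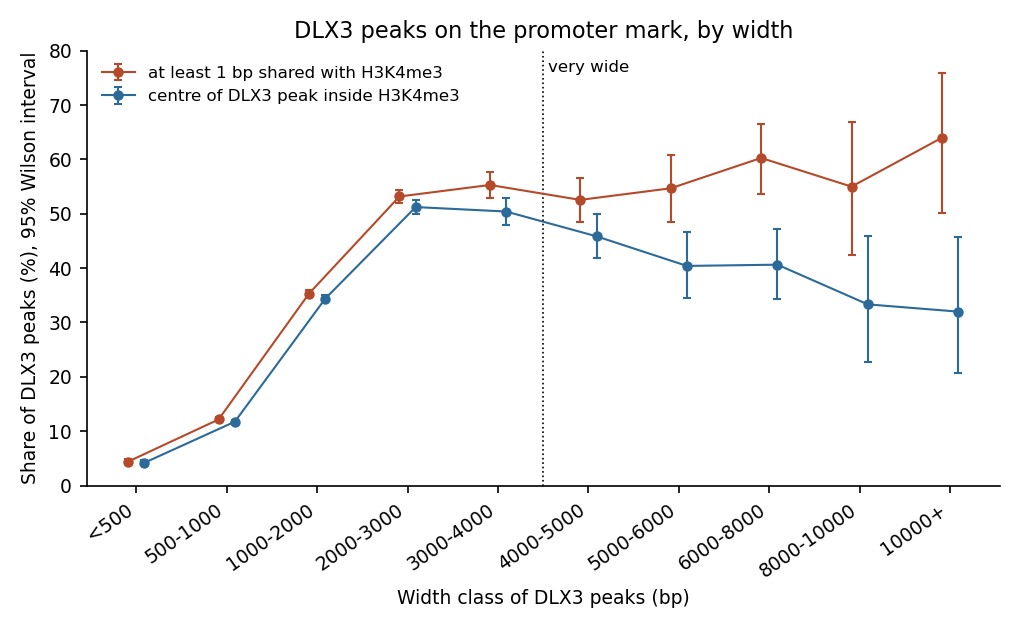
Share of DLX3 peaks (y axis, %) by width class (x axis, bp) that share at least 1 bp with H3K4me3 (red) or have their centre inside an H3K4me3 peak (blue), with 95% Wilson intervals. The red share stays between 52.6% and 64.0% from 2000 bp up, while the blue share goes from 51.2% at 2000 to under 3000 bp to 32.0% at 10000 bp or more.

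Which class lay more often on the mark changed with the score. Very wide peaks of score 50 to under 100 were on it in 62.7% of 51 cases, and narrower peaks of the same scores in 26.3% of 11446. At scores of 100 to under 200 the shares were 53.9% and 36.4%, and at 200 to under 400 they were 53.2% and 50.4%, a difference of 2.76 points (-2.82 to 8.28). Above that the order turned by this rule. At scores of 400 to under 800, 51.3% of 380 very wide peaks and 57.4% of 1139 narrower peaks were on the mark, a difference of -6.10 points (Newcombe interval -11.9 to -0.338). At 800 to under 1600 the shares were 62.5% of 176 and 71.7% of 106, a difference of -9.20 points (-19.8 to 2.26). By the centre of the peak the order had turned already at 200 to under 400, with a difference of -7.41 points (-12.8 to -1.83), and it was -17.5 (-23.1 to -11.7) and -21.7 (-32.3 to -9.94) in the next higher classes. With at least 50% covered, the differences in these 3 classes were -10.9 (-16.2 to -5.37), -21.5 (-26.9 to -15.7) and -26.8 points (-37.3 to -15.0). The share on the mark thus climbed steadily with score among peaks of 1000 to 2000 bp, and showed no such climb among very wide peaks below a score of 800. Median scores on and off the mark were 437.6 and 416.8 in very wide peaks, and 138.1 and 100.1 in the narrower class. The score classes were chosen after the values had been seen.

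Where the mark was present, it usually covered only part of a very wide peak. Among the 629 on the mark, the median part covered was 84.1% (interval of the median 78.5 to 87.3%, quartiles 44.9 and 100%), and 169 (26.9%) were covered whole. Of the 9229 peaks of 1000 to 2000 bp on the mark, 68.8% were covered whole. Under 50% was covered in 181 very wide peaks (28.8%) and in 2.78% of the narrower ones. A longer peak is harder to cover whole, and the covered length, with medians of 4098 and 1337 bp, is bounded by the width that chose the classes. The H3K4me3 peaks sharing the most sequence with them had median widths of 4716 and 2100 bp. Within the very wide peaks the covered part fell from a median of 92.6% at 4000 to under 5000 bp to 47.9% at 10000 bp or more, while the covered length was 4008 and 5955 bp. Several H3K4me3 peaks, up to 4, lay under 66 very wide peaks (10.5% of those on the mark), against 42 of the narrower ones (0.455%).

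**Figure D3:**
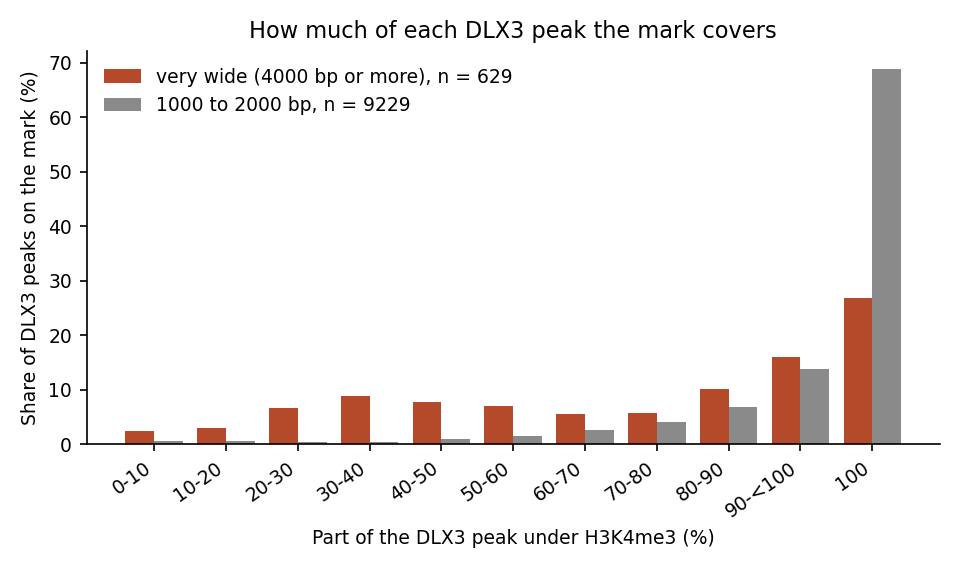
Share of DLX3 peaks on the mark (y axis, %) by the part of the peak that lies under H3K4me3 (x axis, %), for the 629 very wide peaks (red) and the 9229 peaks of 1000 to 2000 bp (grey). Whole cover was found in 26.9% of the red and 68.8% of the grey peaks, and the red bars spread over all lower bins.

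The 629 peaks fell into 4 arrangements with the mark. In 238 the DLX3 peak crossed a single edge of a single H3K4me3 peak, 169 lay wholly inside it, 169 held every H3K4me3 peak they touched from end to end, and 53 touched several with at least 1 crossing an edge. Width of the mark sets these arrangements in part, since a peak must be wider than another to hold it: the median H3K4me3 width was 6710 bp around peaks lying inside the mark and 2432 bp in those that held it. As a description, the highest H3K4me3 score had a median of 3100 (both quartiles 3100) under peaks lying inside the mark and 116.7 (quartiles 70.6 and 411) in those that held it, beside a median of 451.2 in the whole H3K4me3 list. As 2454 H3K4me3 peaks all have the score 3100, it does not rank them. Some H3K4me3 scores under DLX3 peaks were higher, up to 3233. With so many peaks at a single value, whether those at 3100 are weaker than these cannot be told from the scores. Why so many share it was not tested. In the narrower class the same arrangements had medians of 1931 and 74.0, so the order of these was not limited to very wide peaks. The DLX3 scores of the peaks lying inside the mark and of those holding it had medians of 477.7 and 481.7. The highest H3K4me3 score was taken over every H3K4me3 peak touched. Very wide peaks more often touched several (10.5%, beside 0.455% of the narrower peaks on the mark), which gives more room for a high value. Over all on the mark, it reached 3100 in 235 very wide peaks (37.4%, Wilson interval 33.7 to 41.2%) and in 15.0% (14.3 to 15.8%) of the narrower ones. At the other end, 220 (34.98%) and 31.3% touched only H3K4me3 peaks below the median of that list.

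The widest peaks show these arrangements one by one. The 32205 bp peak on chr7:117213545-117245749 held a single H3K4me3 peak of 11476 bp that covered 35.6% of it and scored 2388. The second, 18084 bp on chr6:135276189-135294272, scored 1367 and held a weak H3K4me3 peak of 1244 bp with a score of 71.1, or 6.88% of its length. The third, 17769 bp on chr8:68288637-68306405, scored 1879 and touched no H3K4me3 peak, the nearest being 3673 bp away. The next, 17490 bp on chr7:122210451-122227940, scored 419.4 and lay 20374 bp from the mark. The fifth, 17168 bp on chr1:274510939-274528106, was 92.1% covered by 3 H3K4me3 peaks, the highest of which scored 3158. Of the 10 widest it alone was more than 50% covered.

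The sixth and seventh, 16223 bp on chr10:105927252-105943474 and 15735 bp on chr11:36436443-36452177, were 26.1% and 24.5% covered, each by 2 H3K4me3 peaks with highest scores of 216.8 and 58.3. The eighth and ninth, 14958 bp on chr7:126292076-126307033 and 14928 bp on chr12:38895498-38910425, were off the mark by 9203 and 12375 bp. The tenth, 14868 bp on chr10:88752041-88766908, was 49.0% covered by a single H3K4me3 peak with a score of 83.6. The fifth widest off the mark, 12824 bp on chr11:36385834-36398657, had a score of 2636, the highest among the 5 widest unmarked peaks. Among the 30 widest, 19 were on the mark and 11 off it, 8 had their centre inside it and 7 were covered by at least 50%.

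**Figure D4:**
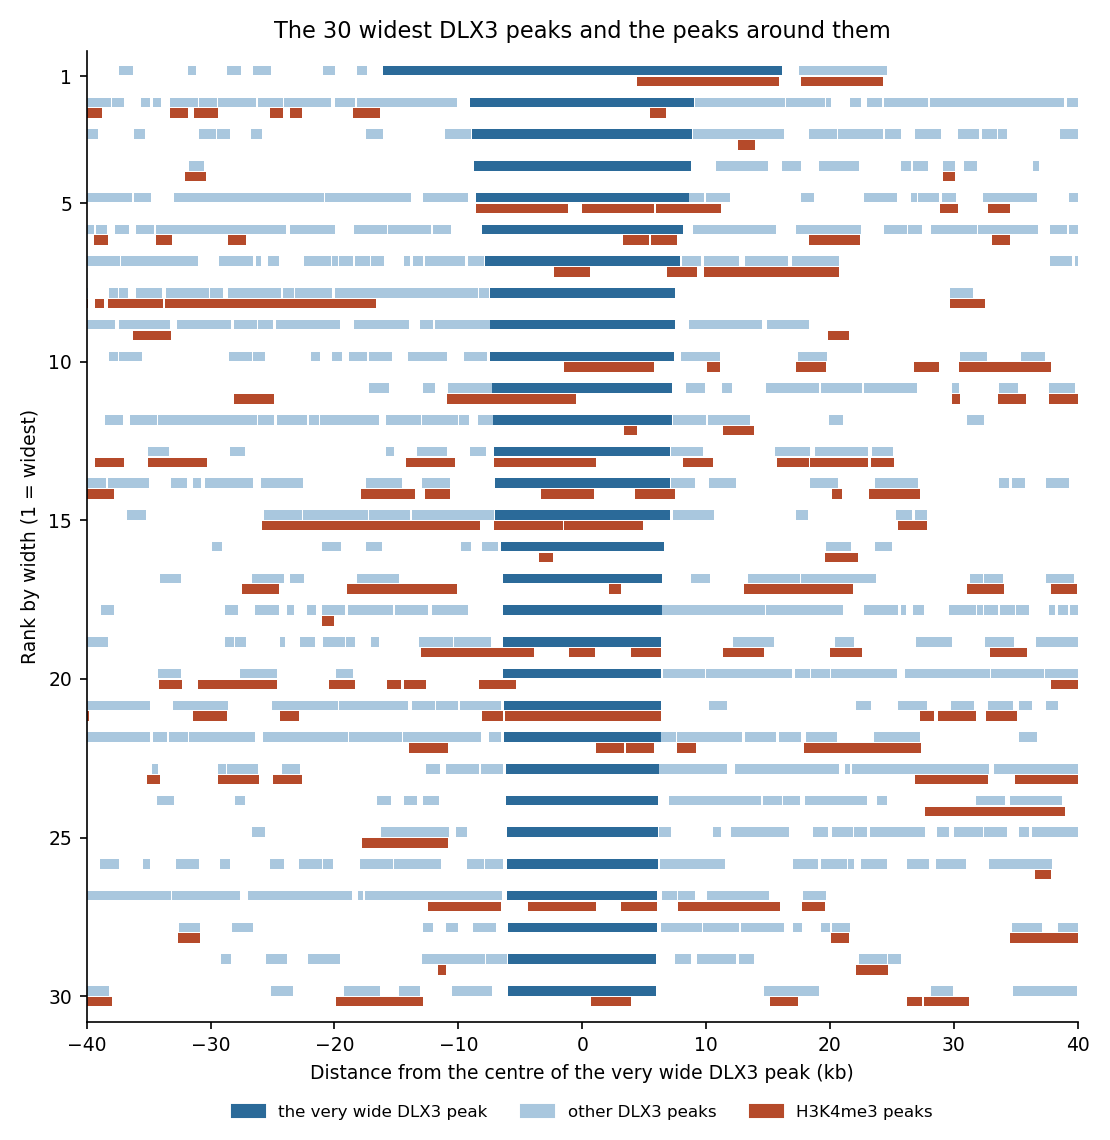
The 30 widest DLX3 peaks, 1 per row by rank (y axis), drawn to scale around their centre (x axis, kb), with other DLX3 peaks in pale blue and H3K4me3 peaks in red. Of these 30, 19 touch a red block and 7 are covered over at least 50% of their length; pale blue blocks crowd close to most of them.

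The mark reached over the whole of some very wide peaks. The 5 widest peaks lying wholly inside H3K4me3 were 11746 bp on chr12:15830229-15841974, 9112 bp on chr16:1724018-1733129, 8720 bp on chr7:11606337-11615056, 8409 bp on chr1:83378523-83386931 and 7914 bp on chr3:177013707-177021620. The H3K4me3 peaks around them were 12896, 9664, 11512, 15975 and 8281 bp wide, and all scored 3100 except the peak on chromosome 1, at 1441. At the other extreme, some peaks counted as on the mark barely touched it. The smallest overlaps were 2 bp of 9258 bp on chr10:15055923-15065180, 8 bp of 5328 bp on chr19:36293795-36299122, 25 bp of 7809 bp on chr5:163490147-163497955, 34 bp of 4148 bp on chr7:12834740-12838887 and 80 bp of 6355 bp on chr2:223452448-223458802.

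The 512 very wide peaks off the mark lay nearer to it than narrower unmarked peaks did. Their median distance to the nearest H3K4me3 peak, edge to edge, was 10510.5 bp (interval of the median 9203 to 12686 bp, quartiles 4283 and 23488 bp), beside 17199 bp (16809 to 17585 bp) in the 16899 unmarked peaks of 1000 to 2000 bp. Part of an edge distance is set by width, since the edges of a wide peak lie farther from its centre. From the centre the medians were 13568.5 bp in very wide and 17904 bp in narrower unmarked peaks, a difference of -4335.5 bp (-5991 to -1856). Of all unmarked DLX3 peaks, 29.2% had the mark within 10000 bp of an edge. It was that near for 246 of the very wide ones (48.0%, Wilson interval 43.7 to 52.4%) and for 34.6% (33.8 to 35.3%) of the narrower. Very wide and narrower peaks differed by 13.5 points (Newcombe interval 9.13 to 17.9). The mark was within 1000 bp for 40 very wide peaks (7.81%), beside 4.39% of the narrower ones and 3.63% of all unmarked DLX3 peaks. In each of the 5 score classes from 50 to 1600 the very wide peaks were the nearer, with medians of 7375 to 12442 bp beside 15158 to 19380 bp. In the lowest of these classes, with 19 unmarked very wide peaks, and in the highest, with 66 and 30 unmarked peaks, the interval of the difference reached both signs (-10535 to 7747 bp and -23378 to 9126 bp). Unmarked peaks of 2000 to under 4000 bp lay at a median of 12689 bp, and the very wide peaks differed from these by -2178.5 bp (-3706 to 135.7).

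Of unmarked peaks of 1000 to 2000 bp, 5.75% lay over 100000 bp from the mark, as did 10.2% of all unmarked DLX3 peaks. Only a single very wide peak did so, 1 of 512 (0.195%). It was 5424 bp wide on chr13:74874912-74880335 with a score of 900.8, 102563 bp from the nearest H3K4me3 peak and with 24 DLX3 peaks around. The next farthest were 10540 bp on chr15:110010509-110021048 at 93498 bp, 5323 bp on chr14:79571495-79576817 at 87307 bp, 4164 bp on chr2:223300025-223304188 at 82739 bp, and 4296 bp on chr16:1120661-1124956 at 80425 bp. These 4 had 16, 22, 21 and 4 DLX3 peaks around.

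Very wide peaks stood among many other DLX3 peaks. The surroundings were taken as 50 kb on each side, measured from the edges so that a wide peak did not use up its own window. Since the count comes from the library that chose the peaks, it is a description. The median was 15 other DLX3 peaks (quartiles 10 and 19), beside 8 (quartiles 4 and 13) around peaks of 1000 to 2000 bp and 7 around all DLX3 peaks. It was 11 around peaks of 2000 to under 3000 bp and 13 around those of 3000 to under 4000 bp. The median thus rose with width below the threshold as well. At least 10 were present around 908 very wide peaks (79.6%), around 42.4% of the narrower ones and around 37.3% of all DLX3 peaks. In both classes the unmarked peaks had the fuller surroundings: very wide peaks had a median of 17 DLX3 peaks around when off the mark and 13 when on it, and narrower peaks had 10 and 6. Within each of the 5 score classes the medians were 13 to 16 around very wide peaks and 7 to 9 around narrower ones.

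H3K4me3 peaks were also more frequent around very wide peaks, with a median of 4 in the same 50 kb on each side, beside 2 around the narrower class. None was present around 58 very wide peaks (5.08%, Wilson interval 3.95 to 6.52%) and around 17.7% (17.3 to 18.2%) of the narrower ones. Over all DLX3 peaks the share with none was 22.3%. An H3K4me3 peak that touches the DLX3 peak is counted here when its centre lies outside that peak. Among unmarked peaks, which touch none, the medians were 3 around very wide peaks and 2 around narrower ones. DLX3 peaks were denser next to the peak than at 95 to 100 kb in each of 4 classes. In the first 5 kb from the edge there were 0.246 DLX3 peak centres per kb around unmarked very wide peaks, 0.169 around marked ones, 0.134 around unmarked narrower peaks and 0.0700 around marked narrower peaks. At 95 to 100 kb the values were 0.0980, 0.0921, 0.0775 and 0.0613.

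**Figure D5:**
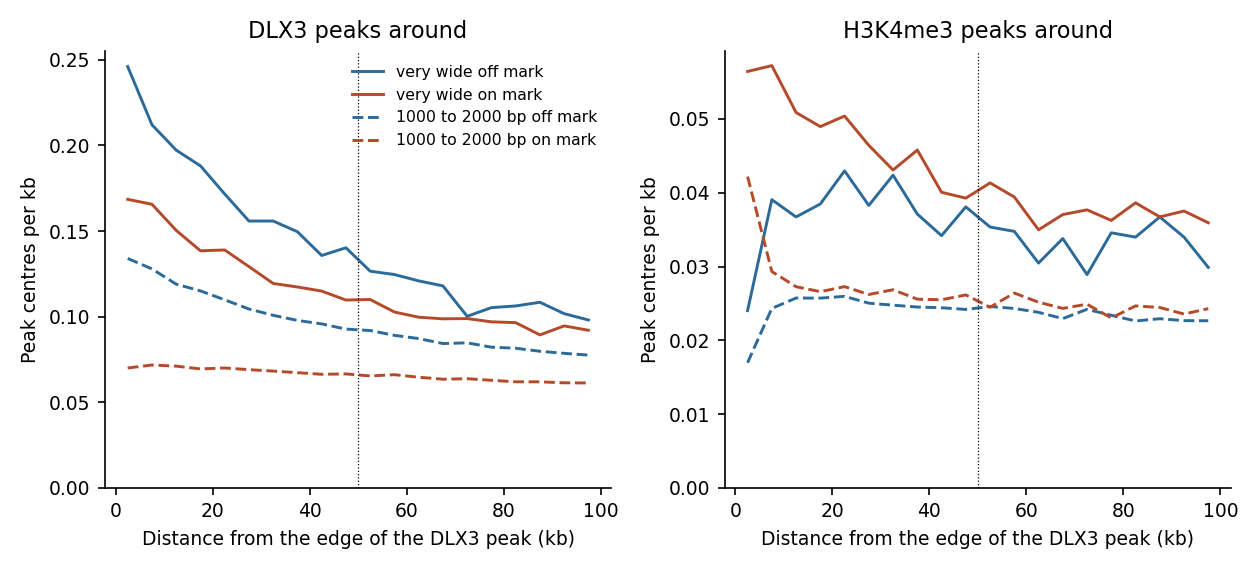
Centres of other DLX3 peaks (left) and of H3K4me3 peaks (right) per kb (y axes) by distance from the edge of the DLX3 peak (x axes, kb, bins of 5 kb, both sides together), for very wide peaks (solid) and peaks of 1000 to 2000 bp (dashed), off the mark in blue and on it in red. DLX3 density next to the peak is 0.246 per kb for unmarked and 0.169 for marked very wide peaks, and it declines to 0.0980 and 0.0921 at 95 to 100 kb. The right panel includes H3K4me3 peaks that touch the DLX3 peak but have their centre outside it.

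Many neighbours adjoined the very wide peak. The gap to the nearest other DLX3 peak had a median of 418 bp, beside 2706 bp in the narrower class. It was at most 200 bp for 433 very wide peaks (37.9%), 13.4% of the narrower and 12.4% of all DLX3 peaks. This share rose with width below 4000 bp too, with 21.3% at 2000 to under 3000 bp and 27.6% at 3000 to under 4000 bp. Such a close neighbour was present for 48.6% of the very wide peaks off the mark and 29.3% of those on it. Joining DLX3 peaks within 200 bp gave 1858 regions of 4000 bp or more, of which 52.5% shared at least 1 bp with the mark, and a median of 12 DLX3 regions around them. The number of regions above the threshold thus depends on where a stretch is broken into peaks. The share on the mark stayed within the interval of the unjoined peaks.

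The 5 peaks with the most DLX3 peaks around came from only a pair of places. Those on chr9:17544824-17554229 (9406 bp, score 1449, 47 around), chr9:17554752-17562325 (7574 bp, 1434, 46 around), chr9:17535954-17540613 (4660 bp, 562, 43 around) and chr9:17586549-17591069 (4521 bp, 993.6, 42 around) share a single stretch of chromosome 9 and much of their surroundings. The fifth was 5432 bp on chr1:207669706-207675137 with a score of 589.9, 39 DLX3 peaks around and the mark 49252 bp away. Conversely, 3 very wide peaks had no DLX3 peak around and all 3 were on the mark. They were 4911 bp on chr14:55216160-55221070, covered whole by an H3K4me3 peak scoring 3100, 4137 bp on chr19:49927396-49931532, covered to 85.4%, and 4464 bp on chrX:45644448-45648911, covered to 45.2%. They were named after their values had been seen.

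Very wide peaks lay close to one another as well. The centre of another was within 50 kb of an edge for 692 (60.6%), whereas 16.1% of peaks of 1000 to 2000 bp had a very wide peak that near. Linked over gaps of up to 50 kb, the 1141 peaks formed 672 runs, 442 of them a lone peak and 230 with several. Of the 230, 56 were on the mark throughout, 38 off it throughout and 136 mixed. Lone peaks were on the mark in 59.95% (Wilson interval 55.3 to 64.4%) and those in runs of several in 52.1% (48.4 to 55.8%). In 31 runs there were 5 or more, 205 peaks in all.

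The runs with the most very wide peaks, also named after their values were seen, held marked and unmarked peaks side by side. A run of 206.3 kb on chr16:1724018-1930346 held 12 very wide peaks, 5 on the mark, with 57 DLX3 and 8 H3K4me3 peaks in all. On chr12:38746540-38917502 there were 11 in 171 kb, 3 of them on the mark, and on chr19:60577338-60765060 there were 10 in 187.7 kb, again 3 on the mark. A run of 10 on chr7:71015534-71144532 had 6 on the mark, and very wide peaks took up 53.8% of its 129 kb. On chr5:83169458-83280306, 110.8 kb held 29 DLX3 peaks, 9 of them very wide, and a single H3K4me3 peak, which 1 of the 9 touched. Among the 10 runs with the most very wide peaks (ties by their summed width), the highest scores were on chr6:135267014-135362302. There, 8 very wide peaks scored 1049 to 2677, took up 68.0% of 95.3 kb and were off the mark in 6 cases.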

How the data were processed

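The submitters' processing notes name MACS 1.4.2, Bowtie 1.1.2 and HOMER, and rat build rn5. Roles, cutoffs and the use of the input as a control are not given in the sources used here. Each deposited list gives positions and the authors' score per peak. Scores are not comparable between lists, start at 50 and 50.01, and come without read counts, so depth is unknown. The input library has no file and was not analysed here.

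Positions are rn5, counted from 1. No rn5 sequence or annotation was used, so regions carry no genes and no sequences are printed. Overlap meant at least 1 bp shared. Distances are between edges. Shares carry 95% Wilson intervals, differences of shares Newcombe intervals, and medians order-statistic intervals; a difference of medians combines both intervals as Newcombe's method does. All cover counting error only. Python 3.11.15, numpy 2.4.6, pandas 2.3.3 and scipy 1.17.1 were used. The overlap count equals that of bedtools 2.31.1, and the code was tested on simulated data. Peaks to name were fixed by rank of width, score, cover, distance and neighbours (the 10 widest, otherwise the 3 or 5 most extreme). The very wide class, the comparison class and these rules were chosen with earlier results of these data known. Alternatives changed the width threshold, the comparison class, the overlap and joining rules, the score range, the mark list, the flank, chromosome X and repeated counting of neighbouring members.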

Additional observations from a re-analysis of the deposited data

How the results depend on the processing

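Of 122 values recomputed under other settings, 56 stayed within the interval of the reported value, 63 moved outside it and 3 changed sign. Of the 56, 5 were fixed, since another comparison class leaves the very wide value as it is, so 51 of the other 117 stayed. The sign changed only for the difference in the share on the mark between very wide peaks and peaks of 1000 to 2000 bp. It was -2.56 points with both classes between the quartiles of score of the very wide peaks, -6.10 at scores of 400 to 800 and -9.20 at 800 to 1600. Elsewhere this difference was 36.4 points at scores of 50 to 100, 2.76 at 200 to 400, 16.7 after joining DLX3 peaks within 200 bp, 23.3 with members within 50 kb counted once, 1.50 against peaks of 2000 to under 4000 bp, 4.93 with at least 50% covered, 8.02 by the centre, 11.7 by the central 1000 bp and 11.6 with the upper 50% of H3K4me3 peaks. The share of very wide peaks itself was 58.6% counted once, 50.8% between the score quartiles, 39.3% with at least 50% covered, 42.4% by the centre, 46.8% by the central 1000 bp, 58.6% with the mark within 1 kb, 35.8% with the upper 50% of H3K4me3 peaks, and 62.7%, 51.3% and 62.5% at scores of 50 to 100, 400 to 800 and 800 to 1600.

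The median covered part was 93.9% and 69.9% with thresholds of 3000 and 5000 bp, 74.9% after joining, 75.9% between the score quartiles and 96.6% with the upper 50% of H3K4me3 peaks, with differences from the narrower class of -6.07, -30.1, -25.1, -24.1 and -3.40 points. The median distance to the mark was 18381 bp with the upper 50% of H3K4me3 peaks, 13568.5 bp from the centre and 7375 bp at scores of 100 to 200. Its difference was -14357 and -4335.5 bp under the first pair of these, -2178.5 bp against peaks of 2000 to under 4000 bp, -9017.5 bp between the score quartiles, and -10664, -10025 and -2716 bp at scores of 100 to 200, 200 to 400 and 800 to 1600. The median number of DLX3 peaks around was 12 after joining, 13 counted once, 9 within 25 kb, 24 within 100 kb, 9 for neighbours of at least the median score, and 13 and 16 at scores of 50 to 100 and 800 to 1600. Its difference was 5 after joining, 5 counted once, 4 against peaks of 2000 to under 4000 bp, 8 between the score quartiles, 5 and 9 with 25 and 100 kb, 5 for higher-scoring neighbours, and 4, 8 and 9 at scores of 50 to 100, 400 to 800 and 800 to 1600. The median score was 322.1 and 512.2 with thresholds of 3000 and 5000 bp and 347.9 after joining, with differences of 211.7, 401.8 and 237.7, and the difference was 225.9 against peaks of 2000 to under 4000 bp.

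The score classes were chosen after seeing the data. A stricter overlap rule, a narrower window or fewer H3K4me3 peaks lower a count by construction, and a looser rule or a wider window raises it. Measuring from the centre lengthens each distance by construction, and more so for wide peaks. Joining leaves fewer DLX3 regions to count, 64569 beside 69263 peaks, and also changes which regions are very wide. For the remaining shifts the cause was not tested. No paired analysis was possible because each antibody has a single library, which also leaves no replicate to omit. Depth is unknown for both lists, which limits what a missing peak can show.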

Other observations

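Very wide DLX3 peaks were unevenly shared among the chromosomes. They made up 3.17% of the DLX3 peaks of chromosome 10 (Wilson interval 2.72 to 3.69%, 159 peaks) and 2.96% of those of chromosome 7 (2.48 to 3.54%, 117 peaks). On chromosomes 17 and 14 they made up 0.669% (0.412 to 1.08%) and 0.697% (0.447 to 1.09%), with 16 and 19 peaks. Chromosome X held 12 very wide ones among 716, or 1.68% (0.961 to 2.91%), beside 1.65% in the whole list. Their share on H3K4me3 was 71.8% of the 117 on chromosome 7 (63.0 to 79.2%), 42.9% of the 105 on chromosome 5 (33.8 to 52.4%) and 39.3% of the 61 on chromosome 12 (28.1 to 51.9%). It was 76.5% of the 17 on chromosome 15 (52.7 to 90.4%). For all DLX3 peaks, chromosomes 7, 5, 12 and 15 had 28.6%, 26.5%, 25.2% and 23.5% on the mark. On chromosome X the order was the other way, with 41.7% of the 12 very wide peaks (19.3 to 68.0%) and 48.5% of all DLX3 peaks on the mark. The chromosomes named here were picked after their values were seen, and very wide peaks in 1 run are not independent.

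The smaller DLX3 peaks near very wide ones were somewhat wider and higher in score than such peaks at large. The 9304 peaks under 4000 bp centred within 50 kb of a very wide peak had a median width of 1387 bp and a median score of 104.5, beside 989 bp and 91.1 over all 68122 peaks under 4000 bp. Their share on the mark was 26.8%, beside 24.9%.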
